A study of Rapana venosa with 9 samples.

Results

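MicroRNAs (miRNAs) that peaked or dipped in competent larvae of the rapa whelk, Rapana venosa, are described here. A miRNA was included when all 3 libraries of competent larvae (CL) lay above, or all 3 lay below, the 6 libraries of precompetent larvae (Pre-CL) and postlarvae (PL) in CPM, counts scaled to the size of each library. Of the 918 miRNA references with deposited counts, 35 met this rule: 21 peaked in CL (2.29% of the references) and 14 had a trough in CL (1.53%). Among the 214 references with enough counts to be tested, 15 peaked (7.01%) and 11 had a trough (5.14%). The rule reads the same libraries as the test, so the position of CL outside the other libraries is what chose these miRNAs and is not a finding about them.

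The study followed the whelk through settlement, with 3 small RNA libraries at each of 3 stages. CL carried 4 spiral whorls, Pre-CL carried 3 spiral whorls, and PL were juveniles that had completed metamorphosis. All stages were reared at one hatchery, the planktonic larvae on unicellular algae, with no treatment or genetic change named for any group. Each replicate is described as a pool of 40 to 100 individuals, although another passage of the methods speaks of RNA extracted from an individual intestine, and it remained unclear which was sequenced. In such libraries, more cells of a type and more miRNA per cell cannot be told apart.

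Metamorphosis in marine snails starts from competence, the state in which a planktonic larva can respond to a settlement cue. A miRNA is a small RNA that guides a repressor complex to messenger RNAs, mainly through its seed, bases 2 to 8 from the 5′ end. Several families are known from timing of development in other animals. In Drosophila, let-7, miR-100 and miR-125 come from one cluster and are switched on together at metamorphosis, and in Caenorhabditis elegans let-7 controls the step from larva to adult.

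The mature sequences that carry the results fall into families by their seeds, shown in capitals. All were read from the deposited reference table, which writes T for U. Predicted miRNAs, those the authors inferred from whelk reads rather than from miRBase, are named by their seed. First come the members with a peak in CL. The let-7 group is shown because its members differ by single bases.
let-7-x: tGAGGTAGtcggttgtatagtt
miR-98-x: tGAGGTAGtcagttgtatagtt
miR-6134-y: tGAGGTAGtcggatgtatagt
miR-4510-x: tGAGGTAGtcggatgtat
miR-6130-y: tGAGGGAGtcggttgtat
miR-36-y and miR-37-y: tCACCGGGtatacattcatc
miR-1985-x: tGCCATTTttatcagtcactgtg
miR-193-y: tACTGGCCtgtaaaatcccaac
miR-9852-y: aTCGGGGTcgtgggacca
Predicted, seed CTAATGC: tCTAATGCtgatgctctgtgagt
Predicted, seed TCAGTGT: tTCAGTGTccgatcgaacttcg
Predicted, seed GATAGAC: aGATAGACagcggcttgatgctc
Predicted, seed TAACGGA: gTAACGGAgcctgggtagcgga

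The members with a trough in CL include one nested pair, miR-99-x inside miR-100-x, and both arms of one predicted hairpin, the miRNAs with the seeds ATCGGGC (5′ arm) and TTCGGCG (3′ arm).
miR-100-x: aACCCGTAgatccgaacttgtg
miR-99-x: aACCCGTAgatccgaacttg
miR-276-y: tAGGAACTtcataccgtgctct
miR-745-y: gAGCTGCCaaatgaagggctgt
miR-1990-x: aGTAAGTTgatggggtcccagg
miR-1986-y: tGGATTTCccaagatccgtgatt
miR-13-y: tATCACAGcctcttggatgagc
Predicted, seed ATCGGGC: gATCGGGCtttgcgtaggaagca
Predicted, seed TTCGGCG: cTTCGGCGcgaactcggtcc
Predicted, seed TGAGCTG: tTGAGCTGgaagaagcctctgatg

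Several of these references share reads or nearly share them, so they are not independent measurements. miR-36-y and miR-37-y are the same 20 bases under 2 names. Positions count from 1 at the 5′ end, with the base of let-7-x first: miR-98-x differs from let-7-x by G11A, miR-6134-y and miR-4510-x by T13A, and miR-6130-y by T6G. Counts were made with up to 2 mismatches allowed. The count of miR-98-x stayed between 0.139% and 0.171% of that of let-7-x in all 9 libraries, and the count of miR-6134-y between 0.00395% and 0.0139%. Whether these low references hold miRNAs of their own or variant reads of let-7-x was not tested. miR-99-x had 14.8% to 122% of the count of miR-100-x.

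Clean reads numbered 8235539 to 10694742 per library. The counts summed over all references were 3762511 to 6781384 per library. References that share reads can count them more than once, so these sums are not a part of the clean reads. Of the 918 references, 519 had under 10 counts over all libraries, and 373 were only 18 nt long. No value of 1 occurs in the table while 2 occurs 792 times, so a count of 0 can stand for a single tag. A count of 0 allows up to 3 counts, or 0.399 to 0.694 CPM depending on the library, for counting error only. Counts were scaled by edgeR's TMM factors, which ran from 0.733 to 1.50. The contrast set CL against the mean of Pre-CL and PL, and a miRNA was called at a Benjamini-Hochberg adjusted p under 0.05 with a fold change over 2. It called 43 of 214 miRNAs (20.1%), 24 of them higher in CL (11.2%) and 19 lower (8.88%). The median log2 fold change over all tested miRNAs was −0.30. miRNAs known from muscle and from nervous system in other animals were present at every stage, and none of the 5 and 10 tested ones was at 0 in any library. Summed over all 6 references, the muscle list was at 95035 to 121264 CPM in CL, 63971 to 84036 CPM in Pre-CL and 98503 to 122754 CPM in PL. The neural list, 12 references, summed to 16894 to 24616 CPM in CL, 19871 to 30470 CPM in Pre-CL and 29197 to 35659 CPM in PL. Most of this sum came from miR-7-x and miR-9-z, with means of 13880 and 5632 CPM in CL. Of its 10 tested references, 7 had their lowest mean in CL, and miR-219-y had its highest mean there. In miR-124-y and miR-190-x the mean of CL lay between the others. miR-124-y rose from 46.1 CPM in Pre-CL to 194 CPM in CL and 297 CPM in PL. The part of these cell types in the levels of the members was not tested.

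The third Pre-CL library stood apart from the other two. Reads under 18 nt made up 14.5% of its high-quality reads, against 4.29% and 4.30% in the first and the second, and its TMM factor of 0.733 was the lowest of the 9. It was the Pre-CL library nearest to CL in let-7-x, miR-36-y, miR-745-y, miR-13-y and miR-1986-y. In other members it was the farthest from CL, among them miR-100-x, miR-1985-x, miR-193-y and the predicted miRNA with the seed TTCGGCG. Without it, all 21 called members were still called, and the log2 fold change of CL against the mean of both stages was 1.36 for let-7-x, 3.88 for miR-36-y, −1.82 for miR-745-y, −1.78 for miR-13-y and −2.15 for miR-1986-y. miR-98-x was then called as well, at 1.22 (adjusted p = 0.0021), and 54 miRNAs were called in all. The part of the short reads in these levels was not tested.

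Of the 15 tested miRNAs with a peak, 10 were called higher in CL (4.67% of all tested), and the other 5 were not. All 11 tested miRNAs with a trough were called lower (5.14% of all tested). The call and the rule overlap in what they measure, and the 2 counts are given as a description. A further 14 miRNAs called higher and 8 called lower did not meet the rule. In 5 of the 14 CL lay between the other stages, and in the other 9 and all 8 called lower CL overlapped at least one of them.

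let-7-x, the most abundant miRNA with a peak, was 1 of 3 peaks with a mean over 1000 CPM in the 9 libraries. It was measured at 37713, 42072 and 37368 CPM in CL, against 9406, 8135 and 21312 CPM in Pre-CL and 26243, 23048 and 27965 CPM in PL. The lowest CL library stood above the highest PL library, and the third Pre-CL library stood apart from the other two Pre-CL libraries. The log2 fold change of CL against the mean of both stages was 1.10 (SE 0.28, adjusted p = 0.022). It rose against Pre-CL by a log2 fold change of 1.59 (SE 0.34, adjusted p = 0.010), while the value against PL was 0.60 (SE 0.33, adjusted p = 0.18). The call rests on the scaling and on single libraries. Without the second Pre-CL, the second CL, the third CL or the second PL library, let-7-x was not called, with a log2 fold change of 0.95 to 1.36 over all 9 libraries left out in turn. With total miRNA counts as library size, let-7-x had 37610, 33210 and 32295 CPM in CL, against 8227, 8174 and 15627 CPM in Pre-CL and 34844, 34483 and 32075 CPM in PL. CL and PL then overlapped, and the log2 fold change of 0.86 was no longer over 2-fold.

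Both miR-98-x and miR-6134-y had the same order of stages at far lower levels. miR-98-x, a vertebrate member of the let-7 family by name, was at 57.4, 62.4 and 52.1 CPM in CL, against 16.1, 12.7 and 35.2 CPM in Pre-CL and 41.2, 38.4 and 43.4 CPM in PL. CL stood above both stages, with a log2 fold change of 0.96 (SE 0.32, adjusted p = 0.058), which did not pass. miR-6134-y was at 3.85, 5.86 and 5.19 CPM in CL, against 0.935, 0.322 and 1.85 CPM in Pre-CL and 2.40, 3.06 and 2.69 CPM in PL. Its log2 fold change was 1.57 (SE 0.43, adjusted p = 0.028), and stayed between 1.31 and 1.89 with each library left out in turn. The call was lost without the first Pre-CL library, without the second or the third CL library, and without any one of the 3 PL libraries. miR-4510-x, with 6, 9 and 6 counts in CL, and miR-6130-y, with 3, 4 and 2 counts in CL, were too low to be tested. miR-4510-x had a further 3 counts over Pre-CL and 6 over PL, and miR-6130-y had none in either stage.

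**Figure D1:**
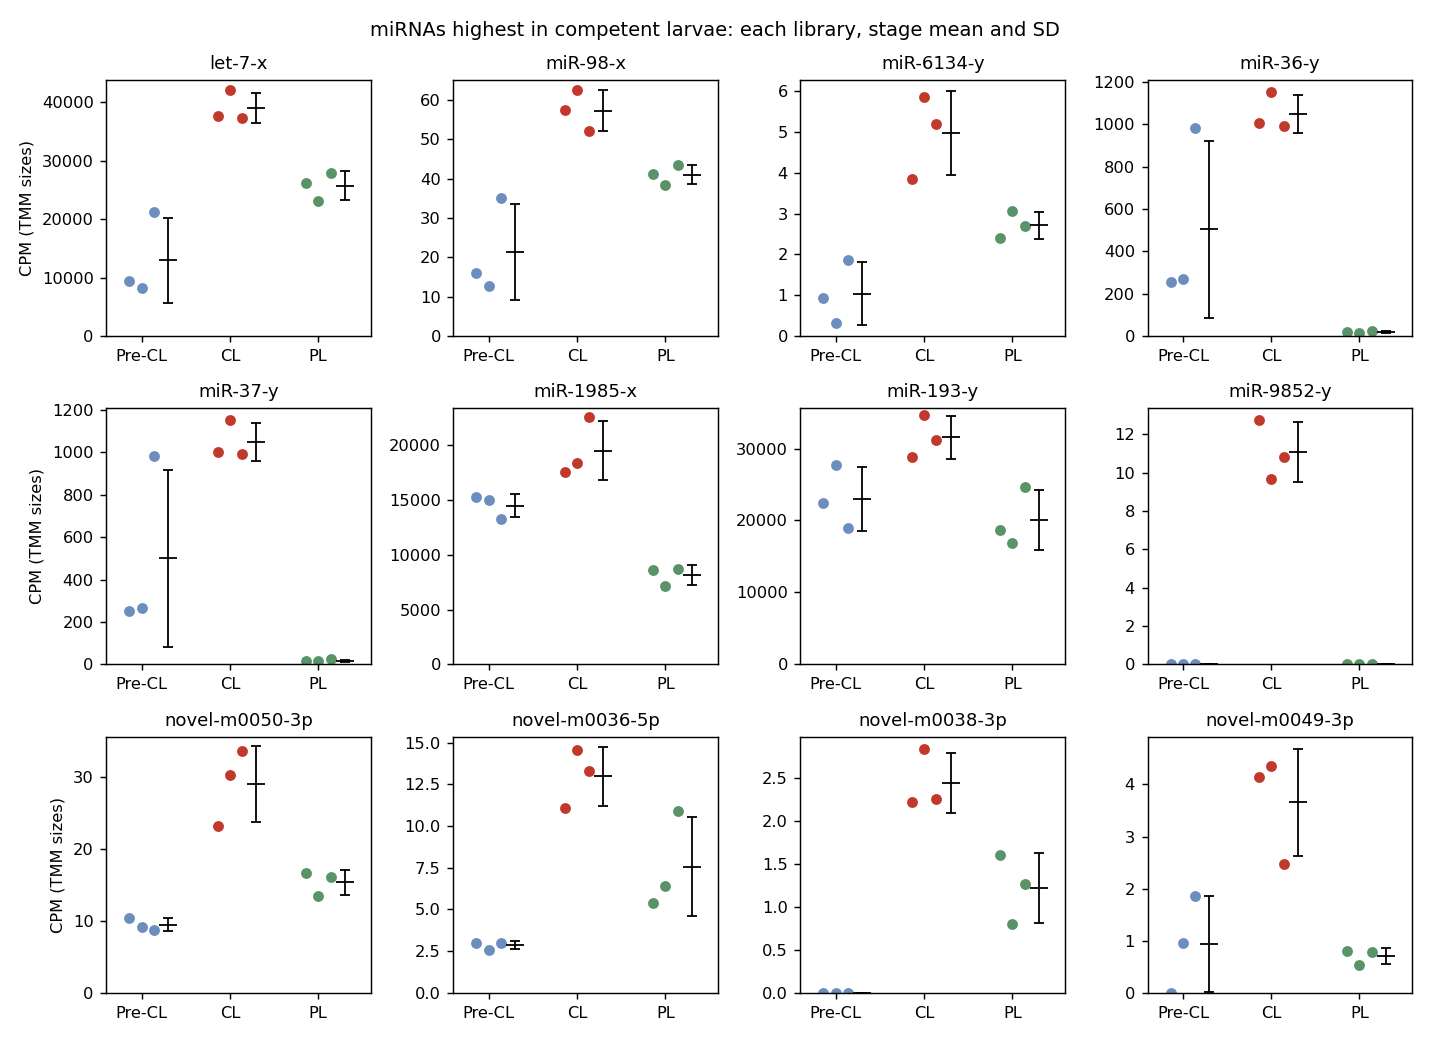
CPM with TMM library sizes of 12 miRNAs highest in CL, 1 panel each, with the stages on the x axis and linear y axes from 0. Points are the 3 libraries of each stage, bars the mean and SD. The panels of the lowest row are predicted miRNAs, in turn that with seed CTAATGC, that with seed TCAGTGT, that with seed GATAGAC and that with seed TAACGGA. In miR-36-y and miR-37-y the third Pre-CL library, at 984 and 981 CPM, nearly reached the lowest CL library, and miR-9852-y has no count outside CL.

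The sequence shared by miR-36-y and miR-37-y carries the seed of the miR-35 family, which in C. elegans is needed in the embryo. miR-36-y was at 1006, 1154 and 990 CPM in CL, against 256, 271 and 984 CPM in Pre-CL and 17.2, 15.7 and 23.4 CPM in PL. The third Pre-CL library was close to the lowest CL library, while all PL libraries were far below. Against the mean of both stages the log2 fold change was 3.43 (SE 0.41, adjusted p = 5.8e-04). Taken one stage at a time, CL was higher than PL by 5.80 (SE 0.60, adjusted p = 1.2e-04), and the difference from Pre-CL of 1.06 (SE 0.49, adjusted p = 0.17) did not pass. These 2 names were also the miRNAs nearest to the limit of the rule among the peaks, since 990.1 CPM in CL stood against 984.5 CPM in Pre-CL for miR-36-y. Just outside the rule were miR-1988-x, with a lowest CL library of 739.0 CPM against 766.9 CPM in the highest other library, and bantam-y, with 5488 CPM against 5815 CPM.

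miR-1985-x and miR-193-y were the other two abundant peaks. miR-1985-x, known from molluscs and other lophotrochozoans, was at 17572, 18415 and 22629 CPM in CL, against 15252, 15034 and 13261 CPM in Pre-CL and 8642, 7123 and 8707 CPM in PL. The 3 stages did not overlap, with PL lowest. The log2 fold change against the mean of both stages was 0.84 (SE 0.14, adjusted p = 0.0032), so it passed the limit on p but not the 2-fold limit. CL was higher than PL by 1.26 (SE 0.17, adjusted p = 5.9e-04), and the difference from Pre-CL was 0.43 (SE 0.17, adjusted p = 0.11). miR-193-y, a conserved miRNA, was at 28773, 34664 and 31157 CPM in CL, against 22430, 27653 and 18890 CPM in Pre-CL and 18623, 16822 and 24695 CPM in PL. Its log2 fold change of 0.55 (SE 0.18, adjusted p = 0.047) was under 2-fold, and the highest Pre-CL library was close to the lowest CL library. With total miRNA counts as library size both miRNAs overlapped another stage, since the second CL library of miR-1985-x was then at 14536 CPM, against 15105 CPM in the second Pre-CL library.

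miR-9852-y was counted 86, 51 and 48 times in CL and had no count in any Pre-CL or PL library. In CPM it was at 12.7, 9.65 and 10.8 in CL. CL was at least 19.1-fold higher than Pre-CL and at least 22.5-fold higher than PL, with a floor of 3 counts per library (adjusted p = 5.8e-04 against the mean of both stages). The call was kept in each fit that left out one library. With no count elsewhere, the reference passed the filter through CL alone, by the values that the rule used. The call is therefore a description and adds no support. The reference is 18 nt long and ends in CCA, the bases that also end every mature tRNA. miR-279-x, also counted only in CL, ends in the same bases. Reads annotated as tRNA took 0.0972% ± 0.00491 of clean reads in CL, 0.166% ± 0.0134 in Pre-CL and 0.874% ± 0.0977 in PL (SD, n = 3 each), lowest in CL. Tags so annotated were removed before miRNAs were counted, and where the reads of miR-9852-y come from was not tested.

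Of the 6 predicted miRNAs with a peak, 5 were called. The one with the seed CTAATGC was measured at 23.2, 30.3 and 33.6 CPM in CL, against 10.5, 9.16 and 8.79 CPM in Pre-CL and 16.6, 13.4 and 16.1 CPM in PL. The 3 stages were separate, with Pre-CL lowest. Its log2 fold change was 1.26 (SE 0.23, adjusted p = 0.0052), with 1.61 against Pre-CL (SE 0.29, adjusted p = 0.0051) and 0.91 against PL (SE 0.28, adjusted p = 0.027). The last of these passed the limit on p and was under 2-fold. The one with the seed TCAGTGT was at 11.1, 14.6 and 13.3 CPM in CL, against 2.99, 2.57 and 3.01 CPM in Pre-CL and 5.41, 6.38 and 10.9 CPM in PL. The third PL library came close to the lowest CL library, and the log2 fold change was 1.48 (SE 0.29, adjusted p = 0.0070). Neither of the 2 was called without the third CL library, with log2 fold changes of 1.11 to 1.42 for the seed CTAATGC and 1.37 to 1.70 for the seed TCAGTGT over all libraries left out in turn.

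Among the 3 other called predictions counts were low. They passed the filter mainly through the CL libraries, whose values the rule also used, so their calls are given as a description. The predicted miRNA with the seed GATAGAC had 15, 15 and 10 counts in CL, against none in Pre-CL and 8, 6 and 8 counts in PL. CL was at least 4.21-fold higher than Pre-CL (adjusted p = 0.0019 against the mean of both stages). The predicted miRNA with the seed AGTGTAT had 13, 14 and 7 counts in CL, against none in Pre-CL and 2, 9 and 2 counts in PL, and was at least 3.54-fold higher in CL than in Pre-CL (adjusted p = 0.0052). Both were thus first counted at competence and still counted in PL, within the limit that a count of 0 sets. For the seed TAACGGA there were 28, 23 and 11 counts in CL, against 0, 6 and 8 counts in Pre-CL and 4, 4 and 5 counts in PL. The log2 fold change was 2.17 (SE 0.66, adjusted p = 0.041), between 1.88 and 2.57 with one library left out. The call was kept without the first or the third Pre-CL library and lost without any one of the 7 others.

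The remaining peaks were not called or not tested. miR-4324-y averaged 6.25 ± 0.498 CPM in CL, 2.37 ± 1.31 CPM in Pre-CL and 3.71 ± 1.29 CPM in PL (SD, n = 3 each), with a log2 fold change of 1.06 (adjusted p = 0.069). It has the seed of miR-125-x, which ran the other way, at 6.04 ± 4.37 CPM in CL, 15.7 ± 15.9 CPM in Pre-CL and 102 ± 22.8 CPM in PL. The predicted miRNA with the seed GGATCTT averaged 3.10 ± 0.0661 CPM in CL, 1.61 ± 0.412 CPM in Pre-CL and 2.18 ± 0.309 CPM in PL, with a log2 fold change of 0.72 (adjusted p = 0.11). Among the 6 untested peaks, 5 were 18 nt long and each had 8 to 23 counts over the CL libraries. miR-1400-y had 2, 12 and 9 counts in CL, and none in Pre-CL or PL. miR-279-x, miR-604-y and miR-6130-y had 8, 12 and 9 counts over CL, and none in the 6 others. miR-967-y had 14 counts over CL, none in Pre-CL and 2 in PL.

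miR-100-x was low in both larval stages, lowest in CL, and high in PL. It was at 40.7, 21.2 and 12.9 CPM in CL, against 54.4, 70.1 and 76.8 CPM in Pre-CL and 2876, 2648 and 3670 CPM in PL. The first CL library was the nearest to Pre-CL, and PL lay far above both. The log2 fold change was −4.18 (SE 0.41, adjusted p = 2.0e-04) against the mean of both stages. It was −1.42 against Pre-CL (SE 0.38, adjusted p = 0.026) and −6.94 against PL (SE 0.48, adjusted p = 1.3e-05). In Drosophila miR-100 is transcribed with let-7, whose whelk counterpart let-7-x peaked in CL.

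miR-99-x, contained in miR-100-x, was at 12.1, 7.75 and 11.3 CPM in CL, against 66.6, 15.4 and 26.6 CPM in Pre-CL and 479, 439 and 542 CPM in PL. CL stood below both stages, the second Pre-CL library nearest. Its log2 fold changes were −3.67 against the mean of both stages (SE 0.50, adjusted p = 9.9e-04), −1.80 against Pre-CL and −5.55 against PL. The third CL library had 50 counts of miR-99-x beside 57 of miR-100-x, whereas in PL miR-99-x had 14.8% to 16.7% of the count of miR-100-x.

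miR-276-y, studied in Drosophila for its role in memory, was almost uncounted at competence. It had 3, 0 and 0 counts in CL, against 96, 565 and 132 counts in Pre-CL and 93, 270 and 170 counts in PL. In CPM these were 0.444, 0 and 0 in CL, against 18.0, 90.8 and 30.5 in Pre-CL and 18.6, 35.9 and 26.9 in PL. Pre-CL and PL overlapped and both lay far above CL. With counts pooled within a stage, Pre-CL had 274 times the level of CL (95% counting interval 93.5 to 1332) and PL had 155 times the level (52.9 to 756). Counting intervals, here and below, leave out the spread between libraries. All 3 CL counts came from the first CL library, and 565 of the Pre-CL counts from the second Pre-CL library. Without the second Pre-CL library the ratio of Pre-CL to CL was 130 (43.8 to 633), an alternative chosen after seeing the data. The adjusted p was 9.9e-04 against the mean of both stages, and the call was kept under each alternative that tested it.

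Both arms of one predicted hairpin had no count in CL. The 3′ arm, with the seed TTCGGCG, had 0 counts in each CL library, against 18, 53 and 74 counts in Pre-CL and 178, 160 and 173 counts in PL. CL was at least 17.2-fold lower than Pre-CL and at least 49.9-fold lower than PL (adjusted p = 9.9e-04), and without the third Pre-CL library the bound against Pre-CL was 10.6-fold. The 5′ arm, with the seed ATCGGGC, had 0 counts in CL, against 2, 2 and 2 counts in Pre-CL and 118, 97 and 148 counts in PL. It was at least 35.5-fold lower in CL than in PL (adjusted p = 9.1e-04), and no fold is given against Pre-CL, whose 2 counts per library are below the limit of 3 counts. This arm passed the filter through PL alone, by values that the rule used, so its call is a description and adds no support.

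**Figure D2:**
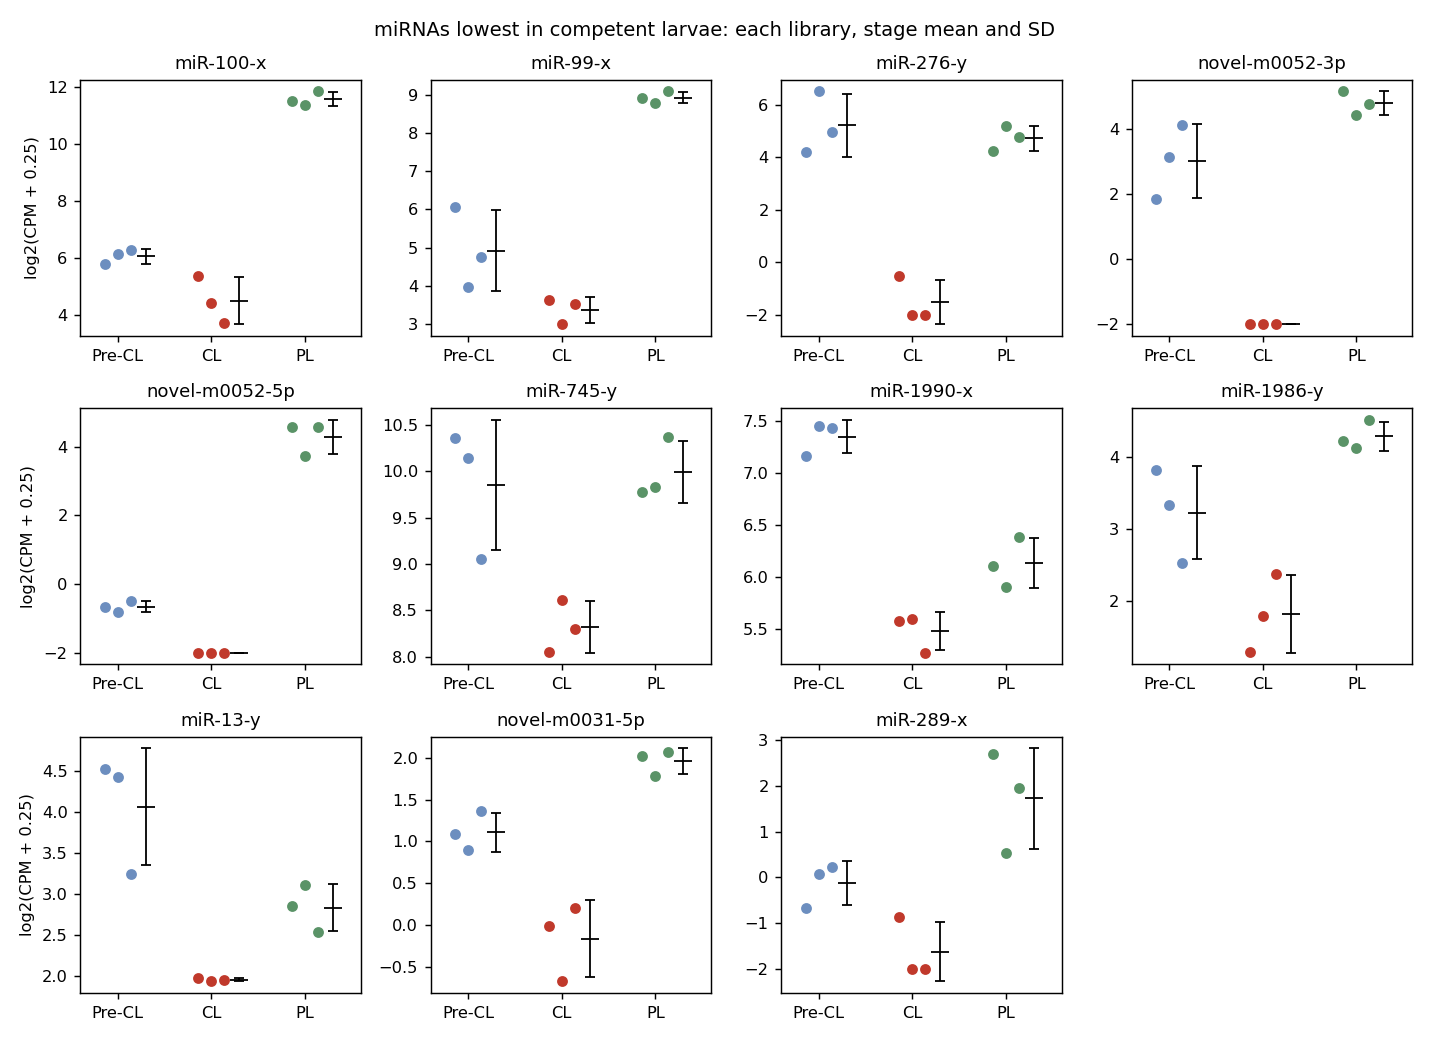
Levels of the 11 tested miRNAs lowest in CL, as log2 of CPM plus 0.25, with the stages on the x axis. Points are libraries, bars the mean and SD of each stage. The 2 panels of the predicted hairpin (seeds TTCGGCG and ATCGGGC) have CL at the floor of the axis, miR-745-y is at 266 to 391 CPM in CL with both other stages above, and miR-100-x and miR-99-x rise to PL. The second to last panel is the predicted miRNA with the seed TGAGCTG.

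A trough was also found in miR-745-y, miR-1990-x and miR-1986-y, which are known from lophotrochozoans. miR-745-y was at 266, 391 and 315 CPM in CL, against 1312, 1131 and 530 CPM in Pre-CL and 875, 910 and 1325 CPM in PL. It was low in CL by about the same amount from both sides, with log2 fold changes of −1.61 against Pre-CL (SE 0.35, adjusted p = 0.012), −1.68 against PL (SE 0.35, adjusted p = 0.0041) and −1.65 against their mean (SE 0.32, adjusted p = 0.0070). The third Pre-CL library was the nearest to CL. miR-1990-x was at 47.3, 48.0 and 38.3 CPM in CL, against 143, 175 and 173 CPM in Pre-CL and 68.7, 59.7 and 83.4 CPM in PL. The 3 stages were separate, and the log2 fold changes were −1.87 against Pre-CL, −0.66 against PL (adjusted p = 0.049, under 2-fold) and −1.27 against their mean (SE 0.22, adjusted p = 0.0038). miR-1986-y was at 2.22, 3.22 and 4.96 CPM in CL, against 13.8, 9.81 and 5.55 CPM in Pre-CL and 18.4, 17.3 and 22.6 CPM in PL. The log2 fold change against the mean of both stages was −2.0 (SE 0.41, adjusted p = 0.0078). It was not called without the second CL library, with a log2 fold change between −2.38 and −1.73 over all libraries left out in turn, and with total miRNA counts as library size the third CL library, at 4.29 CPM, passed the third Pre-CL library, at 4.07 CPM. Among the tested troughs, miR-1986-y and miR-1990-x lay nearest to the limit of the rule. Just outside it were miR-281-x, with a highest CL library of 351.6 CPM against 346.1 CPM in the lowest other library, and miR-200-z, with 13.4 CPM against 13.0 CPM.

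miR-13-y belongs to the miR-2 family, which in Drosophila represses proapoptotic genes. It was at 3.70, 3.59 and 3.61 CPM in CL, against 22.8, 21.2 and 9.25 CPM in Pre-CL and 7.01, 8.37 and 5.54 CPM in PL. The CL libraries were nearly equal, with the lowest PL library the nearest. The log2 fold change was −1.61 (SE 0.37, adjusted p = 0.014), with −2.28 against Pre-CL (adjusted p = 0.0051) and −0.94 against PL (adjusted p = 0.092). It was not called without the second or the third CL library, with values between −1.78 and −1.50 over all libraries left out. miR-2-y, which shares the seed and is far more abundant, averaged 22317 ± 2919 CPM in CL, 40747 ± 13223 CPM in Pre-CL and 17725 ± 2891 CPM in PL, and its log2 fold change of −0.27 did not pass (adjusted p = 0.41).

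The last 2 tested troughs rest on few counts. They passed the filter mainly through the PL libraries, whose values the rule also used, so their calls are given as a description. The predicted miRNA with the seed TGAGCTG had 5, 2 and 4 counts in CL, against 10 in each Pre-CL library and 19, 24 and 25 counts in PL. This gave a log2 fold change of −1.95 (SE 0.39, adjusted p = 0.0070), between −2.20 and −1.63 with one library left out, and it was not called without the second CL library. miR-289-x, an 18 nt reference, had 2, 0 and 0 counts in CL, against 2, 5 and 4 counts in Pre-CL and 31, 9 and 23 counts in PL. PL had 27.6 times the level of CL (95% counting interval 7.32 to 233; adjusted p = 0.027 against the mean of both stages), and the call was lost without the second Pre-CL, the second or the third CL, or the first or the third PL library. The untested troughs were miR-25-y, with 2 counts in CL, 13 in Pre-CL and 10 in PL, miR-328-y, with 0 in CL, 14 in Pre-CL and 8 in PL, and the predicted miRNA with the seed TATGGTA, with 2 in CL, 20 in Pre-CL and 9 in PL.

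Each neighbouring stage was then compared with CL in the same fit. Both comparisons use the same 3 CL libraries. Against Pre-CL, 42 miRNAs were called in either direction (19.6%). Of the 15 tested peaks, 8 were called higher, where 10.3% of all tested miRNAs were, and 10 of the 11 tested troughs were called lower, where 9.35% were. Against PL, 79 miRNAs were called in either direction (36.9%). Here 5 of the 15 peaks were called higher, where 14.5% of all tested miRNAs were, and 9 of the 11 troughs were called lower, where 22.4% were. The direction of each value was fixed by the rule. The rule also selects for a gap between CL and the other libraries. The sizes and these counts of calls are therefore a description and add no support. miR-9852-y was the one peak called on both sides. Among the troughs, miR-100-x, miR-99-x, miR-276-y, miR-745-y, miR-1986-y, both arms of the hairpin and the prediction with the seed TGAGCTG were called on both sides. For the arm with the seed ATCGGGC the call against Pre-CL sets 0 counts against 2 per library.

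The members differed in which side was the larger. miR-36-y, miR-37-y, miR-1985-x, miR-193-y and the prediction with the seed TAACGGA were higher in Pre-CL than in PL on average, 5 of the 21 peaks, and the rest had PL above Pre-CL or no count in both. In 6 of the 14 troughs Pre-CL was higher than PL on average, among them miR-1990-x, miR-13-y and miR-276-y. For miR-276-y this order rested on the second Pre-CL library, at 90.8 CPM, and Pre-CL and PL overlapped. miR-100-x, miR-99-x and the arm with the seed ATCGGGC had most of their level in PL.

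**Figure D3:**
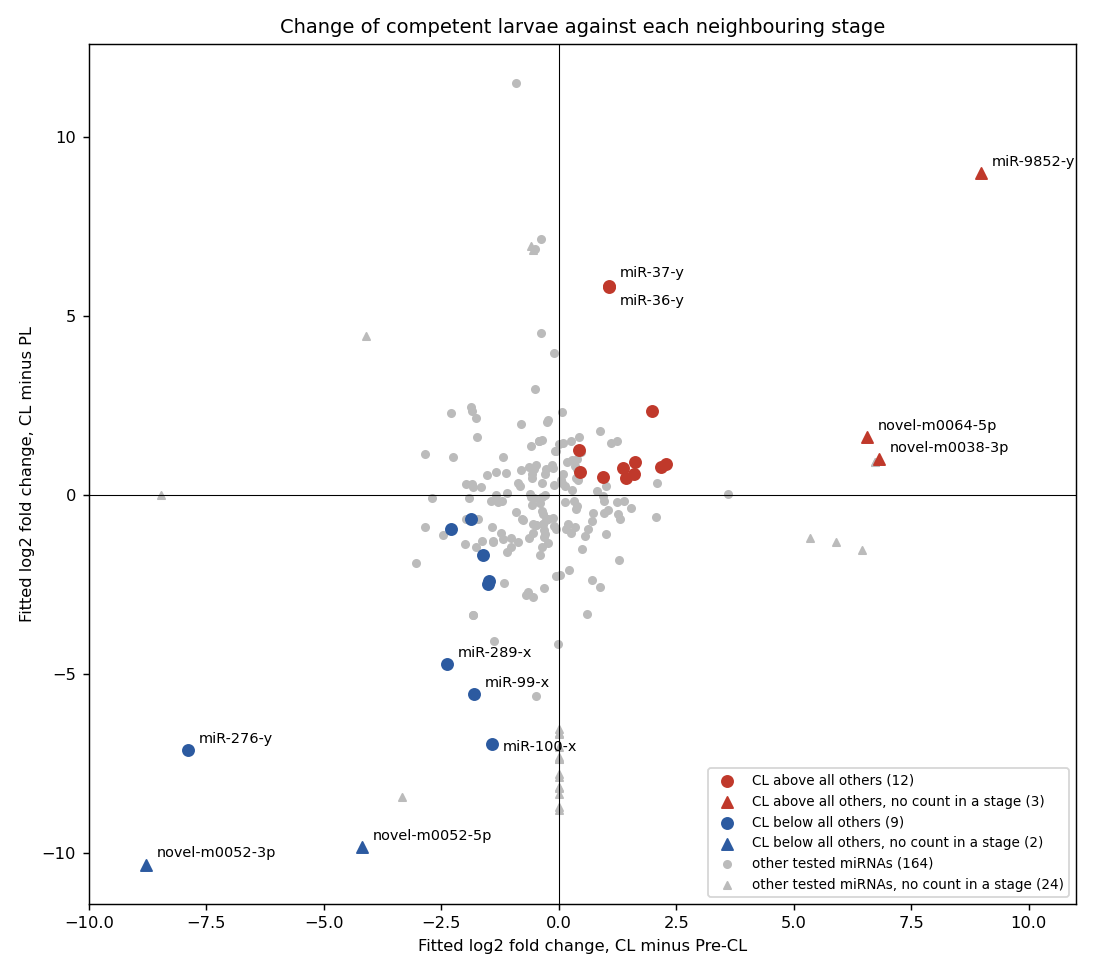
Fitted log2 fold change of CL against Pre-CL (x axis) and against PL (y axis) for the 214 tested miRNAs, 1 point each, with members in red (peaks) and blue (troughs) and the others in grey. Triangles have a stage with no count, where the fitted value depends on the constant added by the fit and is not a measured size; the predictions named there are that with seed AGTGTAT and that with seed GATAGAC on the right, and the arm with seed TTCGGCG and the arm with seed ATCGGGC at the lower left. miR-36-y and miR-37-y lie at 1.06 and 1.07 on the x axis but 5.80 and 5.83 on the y axis, and miR-745-y lies at −1.61 and −1.68.

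The scaling set how many members there were. The median log2 fold change over all tested miRNAs was −0.30 with TMM sizes, −0.46 with clean reads and −0.58 with total miRNA counts as library size. With total counts, 12 miRNAs peaked and 18 had a trough, 11 and 13 of them among the original members. The contrast then called 17 higher and 28 lower, beside 24 and 19 with TMM. With clean reads, 13 peaked and 17 had a trough, and all of the 14 original troughs were kept. The members that no longer met the rule with total counts were let-7-x, miR-98-x, miR-6134-y, miR-1985-x, miR-193-y, miR-4324-y, 4 predicted peaks (the one with seed TCAGTGT, the one with seed GATAGAC, the one with seed AGTGTAT and the one with seed GGATCTT) and, among the troughs, miR-1986-y. Of the called members let-7-x lost its call with total counts, and so did the prediction with seed CTAATGC, whose log2 fold change was then 0.97. The prediction with seed TAACGGA also lost its call, with 1.92 (adjusted p = 0.056). Both predictions still met the rule. miR-36-y, miR-37-y, miR-9852-y, the prediction with seed CTAATGC, the prediction with seed TAACGGA, the 6 untested peaks and the other 13 troughs met it with TMM sizes, clean reads and total counts. No tested member changed its direction against the mean of both stages under any alternative.

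**Figure D4:**
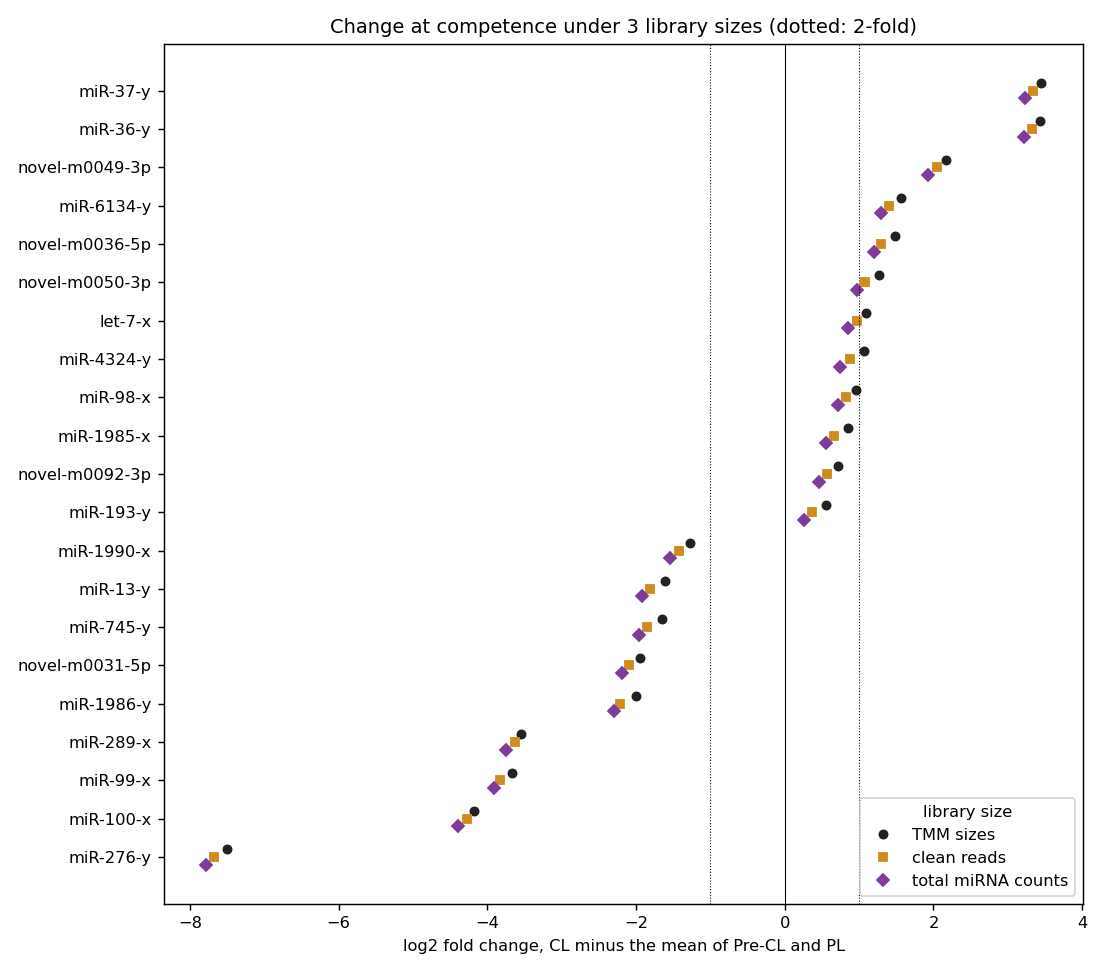
Log2 fold change of CL against the mean of Pre-CL and PL for the tested members with counts at every stage, 1 row each, under 3 library sizes (TMM, clean reads, total miRNA counts), with dotted lines at 2-fold. Values shift to the left from TMM to total counts in each row, let-7-x from 1.10 to 0.86 and miR-745-y from −1.65 to −1.96, and none crosses 0.

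Some of the other small RNA classes were lowest in CL and others were not. Reads of rRNA took 3.55% ± 0.334 of clean reads in CL, 5.11% ± 0.281 in Pre-CL and 7.65% ± 1.40 in PL (SD, n = 3 each). Reads of snRNA took 0.0303% ± 0.00314 in CL, 0.0417% ± 0.00410 in Pre-CL and 0.145% ± 0.00882 in PL. In rRNA, tRNA and snRNA each CL library was below each of the 6 others. This did not hold for snoRNA, at 0.00226% in CL, 0.00138% in Pre-CL and 0.00419% in PL on average. Unannotated reads averaged 29.1% in CL, 23.4% in Pre-CL and 34.2% in PL. The means of known and predicted miRNA reads in CL also lay between the other stages, and reads assigned to the transcriptome overlapped between stages. Reads under 18 nt made up 5.46%, 5.93% and 6.26% of high-quality reads in CL, against 4.29%, 4.30% and 14.5% in Pre-CL and 19.0%, 11.5% and 9.0% in PL. Here CL was not lowest, since the first and the second Pre-CL library lay below it. The part of these classes in the levels of the members was not tested.

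**Figure D5:**
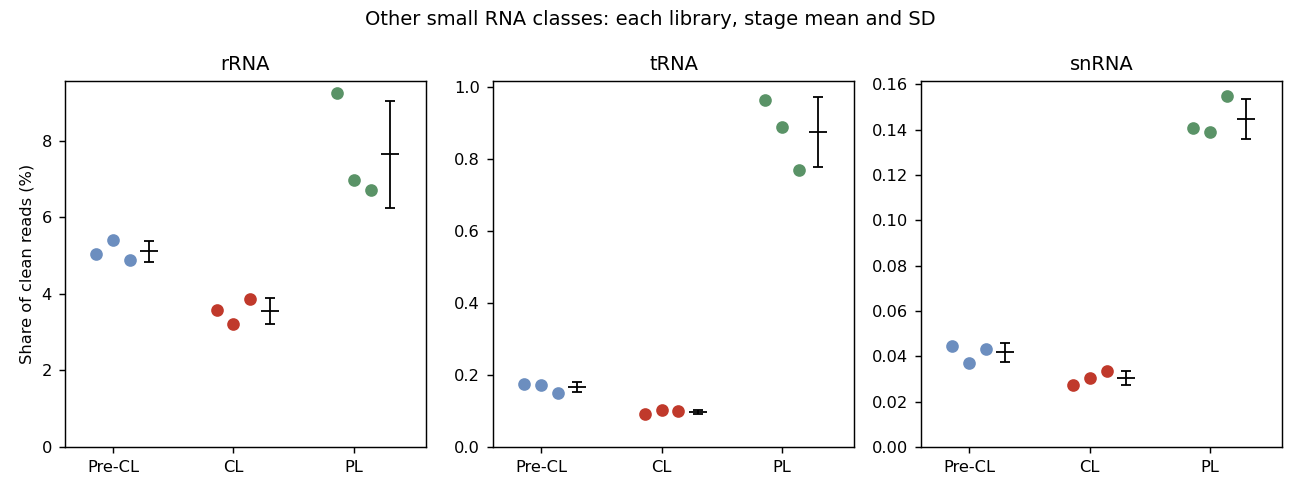
Share of clean reads annotated as rRNA, tRNA and snRNA, in percent, by stage, with linear y axes from 0. Points are libraries, bars the mean and SD. All 3 classes are lowest in CL, with rRNA at 3.20% to 3.87% there.

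Beside the lists that follow, 11.2% of all tested miRNAs were called higher, 8.88% called lower, 7.01% peaked and 5.14% had a trough. Of 6 tested references in the list of developmental timing and Hox cluster miRNAs (let-7, miR-100, miR-99, miR-125, miR-10), let-7-x was called higher and miR-100-x, miR-99-x and miR-125-x lower, with a median log2 fold change of −1.25 beside −0.30 over all tested miRNAs. The other arm let-7-y averaged 23.0 ± 3.23 CPM in CL, 9.27 ± 1.17 CPM in Pre-CL and 36.2 ± 7.32 CPM in PL, so it was not highest in CL. Among 11 tested lophotrochozoan miRNAs, 1 peaked and 3 had a trough, and 4 were called lower, with a median of −0.40. Of the 3 larval miRNAs, miR-36-y and miR-37-y peaked while miR-242-x, also called higher, averaged 72200 ± 16295 CPM in CL, 134758 ± 8038 CPM in Pre-CL and 24.8 ± 26.2 CPM in PL, so CL lay between the other stages. In the sensory organ family 3 of 5 tested references were called higher and none was a member. The lists of 5 muscle and 9 epithelial miRNAs held no member, with median log2 fold changes of 0.22 and −0.66, and neither did that of 10 neural miRNAs, of which miR-9-y was called lower, with a median of −0.58.

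The sequences were compared in features that the rule did not use, as a description without a test. Of the 15 tested peaks, 10 began with T (66.7%), and of the 11 tested troughs, 4 did (36.4%), beside 59.3% of all tested references. Identical references and near copies were each counted in these shares and medians. Among the peaks that began with T were let-7-x, miR-98-x, miR-6134-y, miR-36-y and miR-37-y. The nested pair miR-100-x and miR-99-x was among the troughs that did not. The median GC content was 43.5% in peaks and 50% in troughs, beside 47.6%. Predicted miRNAs were 6 of the 15 tested peaks (40.0%) and 3 of the 11 tested troughs (27.3%), beside 23.8% of those tested. Median length was 22 nt in all 3 sets. The median of the mean level was 7.80 CPM for peaks and 12.6 CPM for troughs, beside 12.9 CPM. Seeds were rarely shared: GAGGTAG occurs in 4 members of 6 references, CACCGGG in 2 of 5 and ACCCGTA in 2 of 2.

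The authors paired 30 of the 35 members with 1565 predicted target genes in 1777 pairs. They kept pairs whose stage means ran in opposite directions, so a target that is low where its miRNA is high is part of the selection. Target levels are the authors' mean FPKM of each stage from their earlier transcriptome, without replicates. Except for caspase-3, the targets named here and below were picked for the largest change between CL and both other stages. Up to 2 were picked per miRNA and not all of them are named, so they do not stand for the targets as a whole. A cytochrome P450 3A11 homologue (c148462_g1), of a family that oxidizes steroids and foreign compounds, was paired with let-7-x and miR-6134-y. Its mean was 13.0 FPKM in CL, 37.9 FPKM in Pre-CL and 30.9 FPKM in PL. Inositol hexakisphosphate kinase 1 (c156418_g1), paired with the same 2 miRNAs, had 14.5 FPKM in CL, 28.3 FPKM in Pre-CL and 27.8 FPKM in PL. An extracellular superoxide dismutase (c82559_g1), which removes superoxide, was paired with the prediction of seed TCAGTGT and had 26.1 FPKM in CL, 67.3 FPKM in Pre-CL and 61.3 FPKM in PL. A receptor tyrosine phosphatase epsilon homologue (c130768_g1), paired with miR-36-y and miR-37-y, had 0.577 FPKM in CL, 1.55 FPKM in Pre-CL and 3.05 FPKM in PL. Of the targets of miR-98-x and of the prediction with seed GGATCTT, 102 and 114 genes, none had its lowest mean in CL.

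For the troughs, the selection kept nearly all targets with their highest mean in CL. Over all 24 targets of miR-100-x the median was 7.52 FPKM in CL, 5.03 FPKM in Pre-CL and 4.11 FPKM in PL. The picked targets were of several kinds. A homologue of Protein PLANT CADMIUM RESISTANCE 3 (c133340_g1), paired with miR-745-y, had 12.9 FPKM in CL and is listed at 0 elsewhere. Krueppel-like factor 5 (c113560_g1), a transcription factor, was paired with miR-100-x, miR-99-x and miR-745-y and had 6.58 FPKM in CL, while it is listed at 0 in Pre-CL and PL. A CCAAT/enhancer-binding protein delta homologue (c133714_g1), also a transcription factor, was paired with the arm of seed ATCGGGC and had 7.78 FPKM in CL, listed at 0 in the other stages. Early growth response protein 3 (c92274_g1), an immediate early transcription factor, was paired with the prediction of seed TGAGCTG and had 4.10 FPKM in CL, 0.0233 FPKM in Pre-CL and 0 listed in PL. Protein PIF (c80260_g1), known as a shell matrix protein in pearl oysters, was paired with miR-1986-y and had 2.52 FPKM in CL and 0 listed elsewhere. MIP-related peptides (c154656_g1), a neuropeptide precursor of Aplysia, were paired with miR-276-y, with 14 FPKM in CL, 3.71 FPKM in Pre-CL and 4.71 FPKM in PL. A caspase-3 homologue (c135194_g1), an executioner protease of apoptosis, was also paired with miR-276-y, with 2.54 FPKM in CL, 0.783 FPKM in Pre-CL and 1.25 FPKM in PL. Neurensin-1 (c152267_g1) was paired with miR-1990-x and had 5.91 FPKM in CL, 1.43 FPKM in Pre-CL and 2.21 FPKM in PL.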

How the data were processed

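Small RNA was sequenced from 9 libraries, 3 each of CL, Pre-CL and PL. The authors removed low-quality reads and tags of rRNA, tRNA, snRNA and snoRNA, aligned the rest to miRBase with up to 2 mismatches, and deposited raw tag counts per miRNA reference. The FPKM deposited by the authors in the table of miRNA and target pairs are stage means. Their fold changes, p-values and correlations in that table were not used, nor were 9 columns of TPM per library, in which a count of 0 is written as 0.01. No genome was used.

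Counts were tested with edgeR 4.0.16 (R 4.3.3): TMM, filterByExpr by stage, the quasi-likelihood test on all 9 libraries with no covariates, and two-sided contrasts adjusted over 214 miRNAs. Each SE was derived by dividing the absolute log2 fold change by the square root of F. The paper calls the replicates biological but names no separate cultures, so p-values measure the spread between these samples, which may be technical in part. Same-numbered libraries correlated between −0.295 and 0.292 in their deviations. The steps were tested on simulated data. Alternatives were library sizes (total counts, clean reads, DESeq2 1.42.0 factors), DESeq2, limma 3.58.1, other filters, identical references once, a replicate block, other limits, and each library left out; references under 20 nt left out, and fold bounds without each library of the higher stage, were added after seeing the data. Members and lists were chosen with earlier results of these data known. Members were named by the rule of up to 12 called per direction and counted 10 times or more in every library of the higher side, a mean over 1000 CPM or mention in the paper, with up to 2 targets each; the other members and caspase-3 were added so that each is accounted for, after their values were seen. Shares of small RNA classes are the authors' deposited tag counts over clean reads. Tables and figures used Python 3.11.15, pandas 2.3.3, numpy 2.4.6 and matplotlib 3.10.9.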

Additional observations from a re-analysis of the deposited data

How the results depend on the processing

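Peaks numbered 12 with total counts and 13 with clean reads as library size, beside 21 with TMM. The DESeq2 Wald test called 31 lower, and limma on log2 of CPM of clean reads plus 1 called 9 higher and 29 lower, beside 24 and 19 with edgeR. Limiting the test to a mean over 10 CPM of clean reads called 22, 12 higher and 10 lower, out of 98 tested miRNAs in place of 214. With each library left out in turn, the calls numbered 25 to 54, of which 15 to 28 were higher and 10 to 26 lower. Without the second CL library 25 were called and without the third 27. There were then 21 to 41 peaks and 15 to 31 troughs, where 8 libraries make the rule looser. With the replicate block 31 were called, 16 higher and 15 lower; the numbers do not pair the libraries, and 18 of the 21 called members were still called. Of these 21, limma called 14, the fits without the second or without the third CL library 14 each, and the test limited to a mean over 10 CPM 9. Without references under 20 nt, an alternative chosen after seeing the data, 17 peaks and 12 troughs were found and 40 miRNAs called. Over 26 tested members the alternatives gave 424 values on the same side of the limits, 44 below and 8 newly past them, and none reversed. Of the 1777 pairs, 1760 had a target of at least 1 FPKM. Depth limits most of the predicted members, where a fold change rests on counts near the floor of 3.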
